A study of Mus musculus with 3 samples.

Results

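Tight junction genes of the heart endothelium were examined in ribosome-associated RNA from 3 EC-RiboTag mice. The 8 genes were listed by symbol for their role in the junction, by a rule that uses no measured value, although earlier results of these data were known. They are the claudin Cldn5, the occludin gene Ocln, the junctional adhesion molecules (JAM) F11r, Jam2 and Jam3, the related adhesion molecule Esam, and the scaffold genes Tjp1 and Cgnl1. All 8 were among the 17583 genes of the deposited table. The mice had the genotype Cdh5-CreERT2;Rpl22tm1.1Psam, in which a tamoxifen-inducible Cre recombinase under the promoter of the VE-cadherin gene switches the ribosomal protein RPL22 to a form with a hemagglutinin tag. Only ribosomes of recombined cells carry the tag, and their RNA was recovered by immunoprecipitation from homogenized hearts. The labels place the hearts 7 days after coronary ligation, while the study's methods for RiboTag mention no infarction. The letters Rz in the titles are not spelled out in the labels. The study's supplement uses RZ for the remote zone, the muscle away from the infarct, among others for a PCR experiment on infarcted EC-RiboTag hearts of the same day. The libraries may therefore come from the remote zone, but the labels name only the heart as tissue. The labels give neither age nor sex. All 3 libraries form a single group without an input or control library, and no difference between conditions could be tested.

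Tight junctions are belts of membrane contacts that seal the space between neighbouring cells. Claudins form the strands that limit the passage of ions and small molecules, occludin is a second type of strand protein with 4 membrane spans, and the JAM proteins are single-span adhesion molecules of the immunoglobulin superfamily. On the cytosolic side, ZO-1, the product of Tjp1, holds these proteins and links them to actin. Paracingulin, the product of Cgnl1, binds ZO-1 and the cytoskeleton. In endothelium these junctions intermingle with adherens junctions, and Cldn5 is the claudin best known from blood vessels, where it is needed for the blood-brain barrier.

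Values are normalized counts, that is, the authors' read counts after scaling each library by its size factor and rounding to whole numbers. The libraries hold about 6755000 to 7566000 reads on listed genes, estimated from the gaps and repeats that rounding leaves among low values. All 9 endothelial markers examined were listed with at least 10 normalized counts in every mouse, among them Cdh5 with 2866 ± 61.2 and Pecam1 with 2746 ± 91.8 (SD, n = 3). All 9 cardiomyocyte markers passed the same limit, as did all fibroblast, leukocyte and mural markers examined. Of all listed genes, 78.7% passed it. Per kilobase of canonical transcript, the median of the cardiomyocyte list was 575, and that of the endothelial list was 554. The levels given here are therefore those of an immunoprecipitate that also holds cardiomyocyte transcripts, and in such bulk samples fewer cells of a type and less RNA per cell cannot be told apart. Duplicate removal caps a transcript at about 1000 per kilobase and may understate abundant ones. The medians of both lists thus do not give the share of either cell type.

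Of the 8 genes, 6 had a mean of at least 1000 normalized counts, a level reached by 11.5% of all listed genes. Jam3 lay below it with 802 and Ocln with 79.7. The median over the 8 genes was 1493 normalized counts, against 237 over all listed genes. Per kilobase of canonical transcript the median was 405, against 73.0. These figures describe the chosen genes and were not tested.

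**Figure D1:**
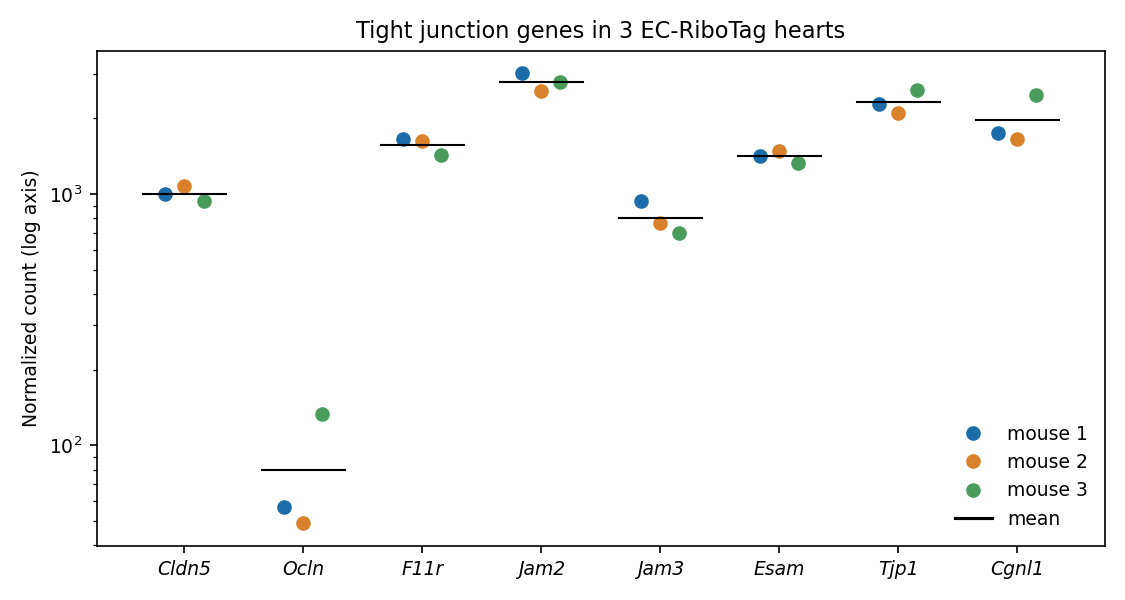
Normalized counts of the 8 genes (log axis) in each of the 3 EC-RiboTag mice, with 1 point per mouse and a line at the mean. Ocln lies far below the other genes, and its value in mouse 3, 133, stands apart from 57 and 49 in the other mice.

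Cldn5 was the leading claudin of these libraries. The gene (ENSMUSG00000041378) spans bases 18595597 to 18597012 of chromosome 16 (GRCm39, plus strand) and consists of 1 exon of 1416 bases. Mice 1, 2 and 3 had 998, 1074 and 940 normalized counts, a mean of 1004 ± 67.2 (SD, n = 3). The values differed little among the mice, with a coefficient of variation (CV) of 6.69%. Before scaling they rest on about 1022, 1013 and 978 reads, which lie closer together than the normalized counts. Counting alone would give a CV of 3.16%, a figure that leaves out duplicate removal. Per kilobase this short transcript reached 709 ± 47.5, close to Cdh5 with 713 ± 15.2. The log2 ratio of Cldn5 to Cdh5 per kilobase was 0.01 in mouse 1, 0.09 in mouse 2 and -0.13 in mouse 3, so that neither gene was higher throughout (exact sign-flip test, two-sided p = 1). Duplicate removal caps a transcript at about 1 read per base, or 1000 per kilobase. The 99th percentile of genes at 200 counts or more was 737, just above Cldn5 and just below Esam, so their true abundance may be understated more than that of rarer transcripts.

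Of the 22 other claudin genes searched, 8 were listed and 4 had at least 10 normalized counts in every mouse. Of all listed genes, 78.7% reached this level. Cldn15 was the next highest with 567, 604 and 427 in mice 1, 2 and 3 (533 ± 93.4, SD, n = 3). Cldn12 followed with 426, 397 and 386 (403 ± 20.7). Cldn11, known from oligodendrocytes and Sertoli cells, had 36, 70 and 104, and Cldn19 had 24, 11 and 12. Cldn3, Cldn4, Cldn7 and Cldn23, of which Cldn3, Cldn4 and Cldn7 are typical of epithelia, did not exceed 20 in any mouse. Cldn1, Cldn2 and Cldn10 were among the 14 claudins without a row in the table, which lists no gene whose highest value is below 4. Of the summed claudin signal per kilobase, Cldn5 took 62.9%, 63.0% and 63.5% in the 3 mice (63.1% ± 0.35, SD), Cldn15 24.6% ± 2.86 and Cldn12 7.15% ± 0.53. The share of Cldn5 thus held almost still while the sum itself ranged from 1045 to 1204 per kilobase. Cldn5 is itself the largest part of that sum, so that share and sum are not independent. Without division by length the share of Cldn5 was 48.8%, since division by length raises short transcripts most.

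The promoters of Cldn5, F11r and Ocln are shown because these genes of membrane proteins, of high and low level, are in the RefSeq promoter table used here. Each window holds 250 bases before and 50 bases after the annotated start, in the direction of the gene, on GRCm38.p6. The windows lie at chr16:18776597-18776896 (plus strand) for Cldn5, chr1:171437311-171437610 (plus strand) for F11r and chr13:100552669-100552968 (minus strand) for Ocln, which has a further window downstream at chr13:100552449-100552748. Capitals mark CCAAT, the box bound by NF-Y, and GGAA, the core that ETS factors bind, on either strand (ATTGG and TTCC).
Cldn5: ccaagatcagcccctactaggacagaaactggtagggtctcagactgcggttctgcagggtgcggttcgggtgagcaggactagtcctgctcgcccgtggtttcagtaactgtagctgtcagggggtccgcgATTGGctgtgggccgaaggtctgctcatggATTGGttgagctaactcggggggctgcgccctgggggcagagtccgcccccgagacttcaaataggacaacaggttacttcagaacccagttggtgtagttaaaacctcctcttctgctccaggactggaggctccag
F11r: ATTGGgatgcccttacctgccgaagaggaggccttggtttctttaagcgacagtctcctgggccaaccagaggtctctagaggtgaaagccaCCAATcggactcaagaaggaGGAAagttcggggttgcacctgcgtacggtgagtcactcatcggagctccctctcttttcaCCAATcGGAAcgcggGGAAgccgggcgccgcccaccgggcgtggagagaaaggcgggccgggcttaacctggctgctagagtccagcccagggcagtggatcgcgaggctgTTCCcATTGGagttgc
Ocln: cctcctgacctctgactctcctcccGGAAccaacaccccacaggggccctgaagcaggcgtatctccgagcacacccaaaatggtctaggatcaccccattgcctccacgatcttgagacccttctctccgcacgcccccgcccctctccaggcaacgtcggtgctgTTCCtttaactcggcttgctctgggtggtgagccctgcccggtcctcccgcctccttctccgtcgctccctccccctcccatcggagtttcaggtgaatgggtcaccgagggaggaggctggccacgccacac
In these letters Cldn5 held 2 CCAAT boxes and no GGAA, F11r held 4 of each, and the Ocln window shown held 2 GGAA and no CCAAT. The further Ocln window held 2 GGAA and 1 CCAAT. Across 32544 promoter windows of the same length, 96.0% held GGAA and 37.4% held CCAAT, so that a window without GGAA, as in Cldn5, was the rarer case. The GC box GGGCGG, found in 35.9% of windows, occurred once in each of the 3 sequences. Of the 8 genes, 5 matched this table. Jam2, Jam3 and Esam did not.

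Ocln was the lowest of the 8 genes and the least even between mice. The gene (ENSMUSG00000021638) spans bases 100633015 to 100689226 of chromosome 13 (GRCm39, minus strand), with a canonical transcript of 9 exons and 6779 bases. Its normalized counts were 57, 49 and 133 in mice 1, 2 and 3, a mean of 79.7 ± 46.4 (SD, n = 3) and a CV of 58.2%. These values rest on about 58, 46 and 138 reads, whose exact 95% Poisson intervals, which cover counting error only, are 43.0 to 73.2, 35.7 to 65.0 and 111 to 157 normalized counts. Mouse 3 therefore differed from the others by more than counting error. Per kilobase Ocln had 11.8 ± 6.84, and the log2 ratio of Cldn5 to Ocln was 6.39, 6.71 and 5.08 in the 3 mice, a mean of 6.06 ± 0.86 (SD, n = 3) or 66.8-fold (two-sided exact sign-flip test, p = 0.25, below which 3 mice cannot reach, and 0.29 adjusted over 14 pairs). The log2 ratio was 3.80 without division by length and 6.85 after correction for duplicate removal. Without mouse 3 the mean of Ocln was 53 normalized counts.

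Transcripts of other genes of the occludin type and of tricellular contacts ranged from no row to the middle of all genes. Marveld2, the gene of tricellulin, had 136, 86 and 110 normalized counts in mice 1, 2 and 3, and Marveld3 had no row. Lsr, the gene of angulin-1, which recruits tricellulin to the corners where 3 cells meet, had 187, 196 and 363 and was, like Ocln, highest in mouse 3. Ildr2, of the same angulin family, had 23, 40 and 52, and Ildr1 had no row. Per kilobase these genes had 36.1 for Marveld2, 96.9 for Lsr and 3.83 for Ildr2, all below Jam3, and Lsr lay above the median of all genes, 73.0.

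Among the JAM genes, Jam2 and F11r were high and Jam3 was lower. Jam2 (ENSMUSG00000053062), which encodes JAM-B, spans bases 84571011 to 84622816 of chromosome 16 (plus strand). It had 3028, 2571 and 2800 normalized counts in mice 1, 2 and 3 (2800 ± 228, SD, n = 3) and ranked 52 among all genes. F11r (ENSMUSG00000038235), which encodes JAM-A, spans bases 171265103 to 171292171 of chromosome 1 (plus strand) and had 1658, 1628 and 1429 (1572 ± 124). Jam3 (ENSMUSG00000031990), which encodes JAM-C, the binding partner of JAM-B, spans bases 27008680 to 27066717 of chromosome 9 (minus strand). It had 941, 765 and 700 (802 ± 125), with mouse 1 highest.

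Per kilobase of canonical transcript, Jam2 had 567 ± 46.3, F11r 474 ± 37.5 and Jam3 158 ± 24.6 (SD, n = 3). Jam2 exceeded its partner Jam3 in each of the 3 mice, by a log2 ratio of 1.85 ± 0.17 (two-sided exact sign-flip test, p = 0.25, adjusted 0.29). F11r exceeded Jam3 3.01-fold, likewise in every mouse. Jam2 exceeded F11r by a log2 ratio of 0.26 ± 0.16, which reversed to -0.84 when the length of all annotated exons was used. The annotation gives Jam2 26 transcripts and 11064 bases of joined exons, against 4934 bases in its canonical transcript, so its place depends on which isoforms the hearts contain. Of the summed JAM signal, Jam2 took 47.3% ± 2.56, F11r 39.5% ± 2.34 and Jam3 13.1% ± 1.08, and the order within the sum was the same in all 3 mice.

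Esam, the gene of an adhesion molecule of endothelial cells and platelets, was the highest of the 8 per kilobase. The gene (ENSMUSG00000001946) spans bases 37439374 to 37449615 of chromosome 9 (plus strand) and had 1418, 1490 and 1333 normalized counts in mice 1, 2 and 3 (1414 ± 78.6, SD, n = 3). Its CV of 5.56% was the smallest of the 8. Per kilobase it had 746 ± 41.5, next to Pecam1 with 747, and above F11r by a log2 ratio of 0.66 ± 0.07 (two-sided exact sign-flip test, p = 0.25, adjusted 0.29). With joined exons that ratio was 0.03, and Esam had 464 per kilobase against 275 for Pecam1. By the longest protein-coding transcript Esam had 740 and Pecam1 563, so their closeness depends on the length used. The platelet markers Pf4, Itga2b, Gp9 and Ppbp summed to 124, 100 and 89 normalized counts, with 2 of the 4 at 10 or more in every mouse. Pf4 had 50, 51 and 50 and Itga2b had 62, 45 and 38, whereas Gp9 had 5, 2 and 0 and Ppbp had 7, 2 and 1. The part of platelets in the value of Esam was not tested. Of the more distant members of this superfamily, Cxadr, the receptor of coxsackieviruses and adenoviruses, had 100, 141 and 110 normalized counts and Clmp had 45, 50 and 42. Igsf5 and Jaml had no row.

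The scaffold genes were high in count but intermediate per kilobase. Tjp1 (ENSMUSG00000030516) spans bases 64945913 to 65177529 of chromosome 7 (minus strand) and had 2291, 2101 and 2586 normalized counts in mice 1, 2 and 3 (2326 ± 244, SD, n = 3). Cgnl1 (ENSMUSG00000032232) spans bases 71533791 to 71678884 of chromosome 9 (minus strand) and had 1754, 1663 and 2486 (1968 ± 451). Both were highest in mouse 3. Per kilobase Tjp1 had 336 ± 35.3 and Cgnl1 291 ± 66.8, and their log2 ratio was 0.35, 0.30 and 0.02 in the 3 mice, so that they were nearly level in mouse 3.

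Relatives of the scaffold genes that are known from epithelia were near 0. Tjp3, the gene of ZO-3, had 8, 1 and 4 normalized counts in mice 1, 2 and 3. Cgn, the cingulin gene, had 0, 5 and 3, whereas its paralog Cgnl1 reached the values given above. ZO-1 is also a protein of the intercalated discs of cardiomyocytes. The cardiomyocyte markers summed to 10879, 10585 and 10446 normalized counts in mice 1, 2 and 3. Among them, Actn2 (859, 656 and 885) and Tnnt2 (1309, 1382 and 1407) were highest in mouse 3. Myh6 was highest in mouse 2 and the other cardiomyocyte markers in mouse 1. How much of Tjp1 comes from these cells was not tested.

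**Figure D2:**
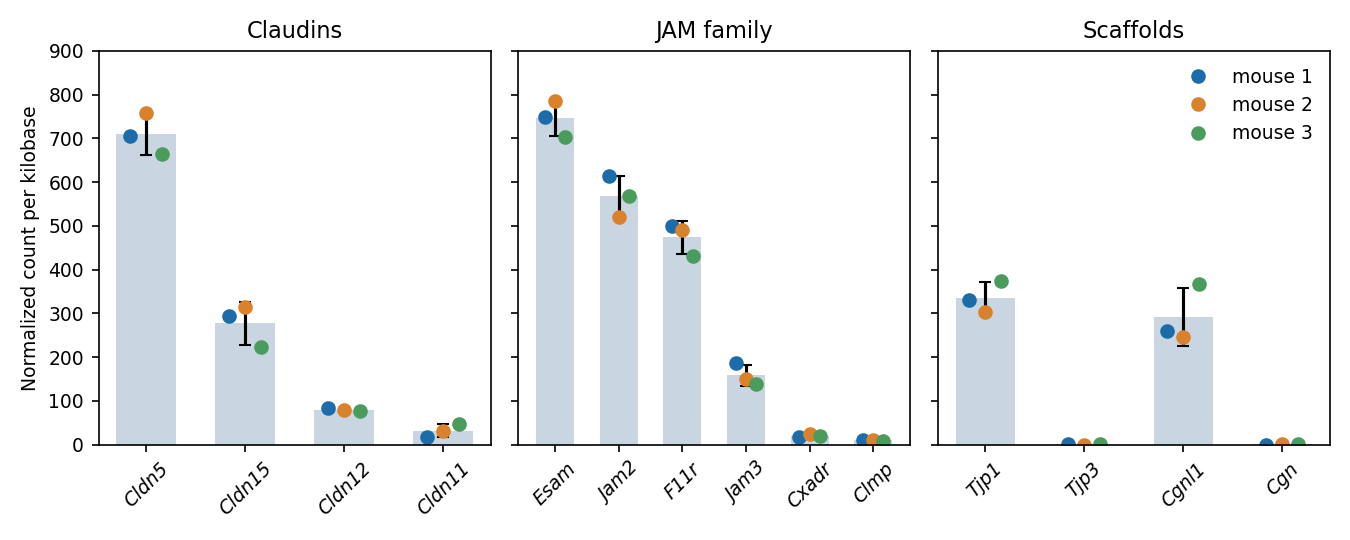
Normalized counts per kilobase of canonical transcript for claudins, JAM family genes and selected scaffolds, with bars for the mean, error bars for the SD and 1 point per mouse (n = 3). Within each family a few genes carry the signal, and Tjp3 and Cgn are near 0.

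Ordered per kilobase of canonical transcript, the 8 genes ran Esam, Cldn5, Jam2, F11r, Tjp1, Cgnl1, Jam3 and Ocln. Neighbours in this order were further apart than the greater of both SDs in 5 of 7 cases. The exceptions were Esam and Cldn5, which were 37.0 per kilobase apart with an SD of 47.5, and Tjp1 and Cgnl1, 44.2 apart with an SD of 66.8. Within single mice, however, all 7 neighbours kept their order in each of the 3 mice. At least 200 per kilobase were reached by 6 of the 8 genes, against 23.7% of all genes with a length. By joined exons, 3 of the 8 kept their place, and the order became Cldn5, Esam, F11r, Tjp1, Jam2, Cgnl1, Jam3 and Ocln. The low places of Jam3 and Ocln did not depend on this choice.

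**Figure D3:**
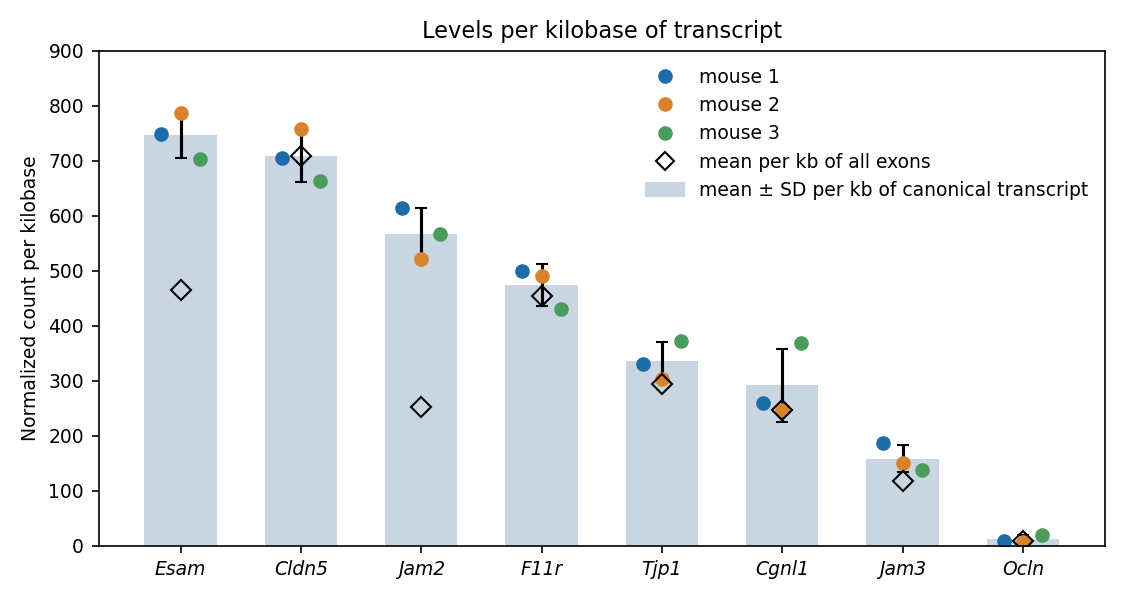
Normalized counts per kilobase for the 8 genes, as bars (mean), error bars (SD) and points (mice, n = 3) for the canonical transcript and as diamonds (mean) for all annotated exons. Esam and Jam2 drop most with joined exons, whereas Cldn5, with a single transcript, stays at 709.

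Between mice, 6 of the 8 genes varied with a CV below 20%, and Ocln and Cgnl1 exceeded it. Of all genes that averaged 10 or more, as these 8 did, 24.2% exceeded 20%. Of the 7 genes that averaged 200 or more, Cgnl1 alone exceeded a CV of 20%, with 22.9%, and 8.00% of all genes with such a mean did so. Its excess rested on mouse 3, since without that mouse 0 of the 7 genes exceeded 20%. Without mouse 2, Jam3 did as well. The median CV of the 7 was 8.16%, and that of all genes at this level was 7.37%. Ocln, which lies below this mean, was the only one of the 8 with 1 mouse at least 2-fold from both others, a rule set after its values had been seen and met by 2.13% of genes that averaged 50 or more and by 5.36% of those that averaged 10 or more.

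The deviations of mouse 3 ran in both directions. Relative to the mean of the other mice, its log2 ratio was 1.33 for Ocln, 0.54 for Cgnl1 and 0.24 for Tjp1. It was -0.29 for Jam3, -0.20 for F11r, -0.14 for Cldn5 and -0.13 for Esam, and 0.00 for Jam2. Over all 11956 genes that averaged 50 or more, the central 90% of these ratios lay between -0.29 and 0.47 in mouse 3, so that Ocln and Cgnl1 lay outside it. Cldn5 and Esam are the nearest of the 8 genes to the cap of duplicate removal. Their reads before scaling lay closer together than their normalized counts. Marker lists also differed in mouse 3. The mural markers summed to 1373, 1501 and 1750 normalized counts in mice 1, 2 and 3, the fibroblast markers to 2315, 2431 and 2860, and the lymphatic endothelial markers to 2583, 3252 and 3735, whereas the endothelial markers summed to 20165, 19686 and 19598. Single markers did not all follow their sums. Rgs5 had 542, 615 and 505, Kcnj8 138, 85 and 119, Col1a1 378, 642 and 401, and Col1a2 454, 669 and 531. Prox1 had 349, 554 and 550 and Pdpn 193, 312 and 264. The other mural, fibroblast and lymphatic endothelial markers were highest in mouse 3. Of the 8 epithelial and mesothelial markers, Epcam, Cdh1 and Krt8 had no row. The other 5 had at least 10 in every mouse and summed to 945, 1195 and 1131. Most of this sum was Wt1, with 871, 1055 and 939, and Krt18, Msln and Upk3b did not exceed 36 in any mouse. Krt19 had 28, 89 and 103. The part of these cells in the values of Ocln and Cgnl1 was not tested.

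**Figure D4:**
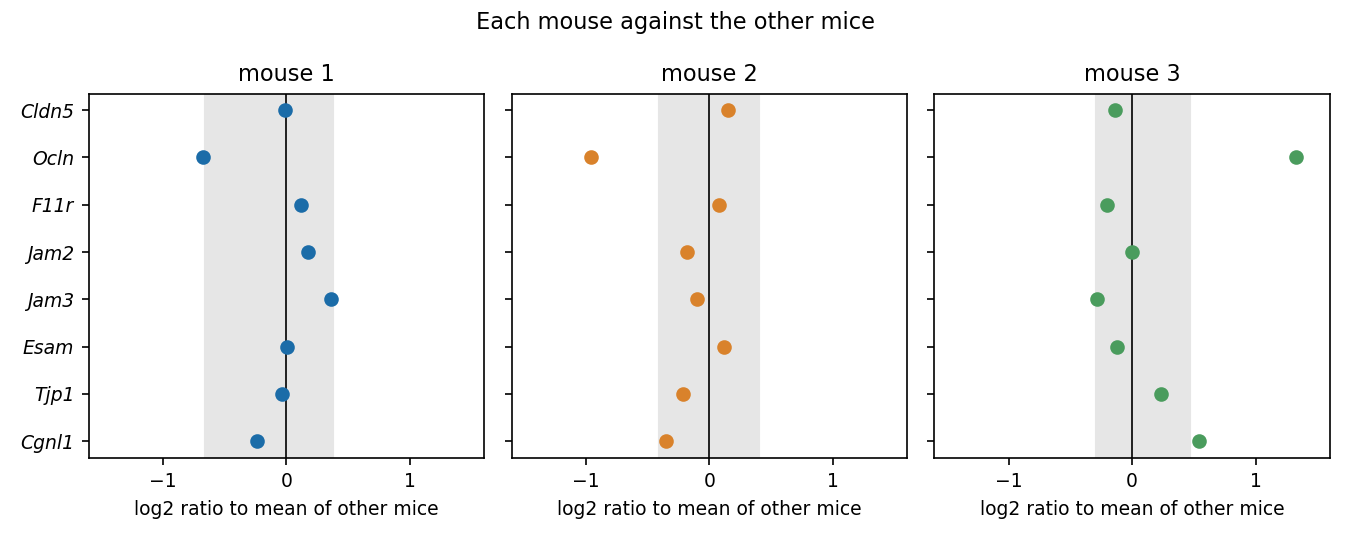
Log2 ratio of each mouse to the mean of the other mice for the 8 genes (points), with the 5th to 95th percentile of all genes averaging 50 or more in grey. In mouse 3 Ocln, at 1.33, and Cgnl1, at 0.54, lie to the right of the grey band, which ends at 0.47.

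Around these 8 genes, 64 other genes of tight junctions were searched, of which 45 were listed and 37 had at least 10 normalized counts in every mouse, a level reached by 78.7% of all listed genes. They were grouped by role. Of 12 further scaffold genes, all were listed, 10 passed this limit and 4 had a mean of at least 1000. The highest were Amotl1, which encodes an angiomotin relative, with 3426, 3333 and 3059 in mice 1, 2 and 3, and Afdn, which encodes the actin-binding afadin, with 3062, 2611 and 2736. Per kilobase they had 364 and 342, close to Tjp1.

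Of 12 genes of the polarity complexes, which position the junction along the cell border, 11 were listed and 9 passed the limit. Lin7c led them with 1357 ± 64.4 normalized counts (SD, n = 3), followed by Prkci, the gene of an atypical protein kinase C, with 782 ± 29.9. The Crumbs genes Crb1 and Crb2 did not exceed 12 in any mouse, and Crb3 had no row. All 9 genes of signalling and traffic passed the limit. Arhgef2, which encodes the exchange factor GEF-H1, had 1641 ± 97.4, and Ybx3, which encodes the ZO-1-associated transcription factor ZONAB, had 1087 ± 43.4 and, per kilobase, 642.

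For 7 of the 8 genes, another gene with nearly the same values in the 3 mice was found, searching genes that averaged 200 or more. The Euclidean distance of the log2 values over 3 libraries was 0.01 between Esam and Cdc42, 0.04 between Cldn5 and Cct5, and 0.04 between Jam2 and Afdn. It reached 0.17 between Cgnl1 and Ankrd11. Ocln lies below this mean, and its nearest gene, Nrxn2, was 2.39 away. With 3 mice and so many genes such neighbours are a description of level and nothing more.

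The reads of these genes could be placed well. At most 0.34% of the 72-base windows of a canonical transcript had an exact copy elsewhere in the genome, in F11r, and 0.27% in Ocln, and the other 6 genes had none. No canonical exon of the 8 genes overlapped an exon of another gene on the same strand. On the opposite strand, Ocln shared 87 bases with Gm60854, F11r 178 bases with Gm26641, Jam2 shared 485 bases with Atp5pf and Jam3 shared 1356 bases with Ncapd3 and Gm48796, and the authors counted reads by strand.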

How the data were processed

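RNA bound to tagged ribosomes gave 3 libraries of 72-base single-end reads. The authors used Trimmomatic 0.39 for trimming and STAR 2.7.11a for alignment to mm39 (Ensembl release 109), removed duplicates (Picard 3.1.1) and multi-mapping, ribosomal and mitochondrial reads, counted reads per gene on the correct strand (featureCounts 2.0.4) and normalized with DESeq2 1.36.0. The deposited values are treated as a score, since the authors' read counts were divided by size factors and rounded, and no count model was fitted. No column belonged to another sample.

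From these values the mean, SD and CV over mice were computed, the median over genes, and values per kilobase of the Ensembl canonical transcript in GENCODE vM39 (GRCm39), which holds 17475 of the 17583 genes. GENCODE vM39 is newer than the authors' annotation. Log2 ratios within a mouse were tested for 14 pairs by flipping signs exactly over mice (a two-sided permutation test), with Benjamini-Hochberg adjustment, and p cannot fall below 0.25 with 3 mice. The libraries are called biological replicates in the labels. Depth was estimated from the worth of 1 read in each library (0.977, 1.06 and 0.961 normalized counts), a method tested on simulated data together with the CV rule, and intervals cover counting error only. Alternatives were joined exons, the longest protein-coding transcript, trimmed means of log ratios, equal totals, the median over mice, other minimum means and leaving out each mouse. Omitting the division by length, correcting for duplicate removal and the 2-fold rule were added after seeing the data. The genes and lists were chosen with earlier results of these data known. Of the wider list, the highest 1 or 2 genes per role are named, besides genes named after their values were seen. Results that need items withheld from the text are not reported here. The named marker lists cover 9 cell types. Platelet and Schwann cell markers summed to at most 124 and 44 normalized counts, and leukocyte markers to at most 681. Windows were searched with BLAST 2.17.0, and Python 3.11.15, numpy 2.4.6, pandas 2.3.3, scipy 1.17.1 and matplotlib 3.10.9 were used.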

Additional observations from a re-analysis of the deposited data

How the results depend on the processing

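The median of the 8 genes stayed between 1459.5 and 1548.5 normalized counts with a mouse left out and moved by less than its spread between mice under every scaling tried. Of 14 log2 ratios per kilobase, 2 pairs reversed with joined exons beyond Cldn5 to Cdh5, namely Cldn5 to Esam (0.61) and Jam2 to F11r (-0.84). Without division by length, Cldn5 to Tjp1 (-1.21), Jam2 (-1.48), F11r (-0.65) and Cgnl1 (-0.95) and Esam to F11r (-0.15) reversed, by construction, since the lengths differ. The ratio of Cldn5 to Cdh5 lies near 0 and took either sign, with 0.11 by joined exons, 0.024 by the longest transcript and -0.061 to 0.053 with a mouse left out. By joined exons 3 of 8 genes kept their place in the order, and all 8 did by the longest transcript, by the median over mice and with each mouse left out. The order was not computed without length or after correction for duplicate removal. The share of Cldn5 in the claudin sum was 68.0% by joined exons, 65.2% by the longest transcript, 48.8% without length and 72.6% after correction for duplicate removal. That of Jam2 in the JAM sum was 30.7% by joined exons, 54.1% without length and 50.8% after the correction. With a minimum mean of 10 in place of 200, 24.2% of all genes exceeded a CV of 20%, and 2 of the 8 genes, Ocln and Cgnl1. With a mouse left out, the share ranged from 4.84% to 9.86% and the number of genes from 0 to 2. From 37 other tight junction genes, other limits gave 30 to 43. The correction for duplicate removal raised the log2 ratio of Cldn5 to Ocln to 6.85, and leaving out the division by length lowered it to 3.80. No paired analysis was possible because the libraries form a single group. Depth limits the precision of Ocln and of the low claudins, which rest on few reads. For each of the 8 genes the CV of the normalized counts between mice exceeded that from counting alone. This comparison leaves out duplicate removal and was not made on reads before scaling. For Cldn5 and Esam those reads lay closer together than the normalized counts.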
